A study of Mus musculus with 126 samples.

Results

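The Magea and Mageb genes of the mouse are the rodent relatives of the human melanoma antigen (MAGE) genes. All genes of the count table whose symbol begins with Magea or Mageb followed by a number were taken, which gave 16 of the 23420 genes listed. They are 8 Magea genes (Magea1, Magea2, Magea3, Magea4, Magea5, Magea6, Magea8 and Magea10) and 8 Mageb genes (Mageb1, Mageb2, Mageb3, Mageb4, Mageb5, Mageb16, the pseudogene Mageb16-ps1 and Mageb18). The choice used the symbols alone and no measured value. Because copies within a family resemble each other and short reads can be assigned to the wrong copy, sums over each family are given beside the single genes.

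Genes of these families are called cancer-testis antigens, since in adults their RNA is found mainly in male germ cells and the genes are often active again in tumours. The proteins share a conserved MAGE homology domain, and several of them bind RING-type ubiquitin ligases. In human cells their promoters are a textbook example of DNA methylation that accompanies silence, and inhibitors of DNA methyltransferases are known to raise their RNA in cancer cell lines.

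RNA was measured in 8 of the 126 samples of the series, and the other 118 were not analysed here. The cells were mouse embryonic stem (ES) cells of the J1 strain, cultured on gelatin in serum medium with LIF. They were either wild type or carried null alleles of 3 DNA methyltransferase genes (Dnmt1-/-, Dnmt3a-/-, Dnmt3b-/-; triple knockout, TKO). Each genotype received Trichostatin A (TSA), an inhibitor of histone deacetylases, at a labelled 5 ng/µl, or 0.0033% DMSO as solvent control, for 36 h. This gives 4 groups of 2 libraries, named by genotype and agent, which are always given in the same order: both wild type groups before both TKO groups, and DMSO before TSA. The design text calls the libraries biological replicates but does not say how they were separated. The labels name no clone for the TKO cells, so a difference between genotypes is a difference between the cell populations used.

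Library totals ran from 13280631 to 15542527 counts, and 3 counts corresponded to 0.183 to 0.243 normalised CPM, which are counts scaled to the effective size of each library. Dnmt1, Dnmt3a and Dnmt3b RNA was lower in all 4 TKO libraries than in all 4 wild type libraries, with highest TKO values of 135, 39.1 and 76.1 CPM and lowest wild type values of 360.1, 152 and 343 CPM. All 8 ES cell markers examined, Pou5f1 and Nanog among them, were detected in every group. In wild type cells their summed level was 3293 and 3710 CPM with DMSO against 2124 and 1895 CPM with TSA, and in TKO cells it was 4143 and 4501 CPM against 2174 and 1851 CPM. It was thus lower in the TSA libraries of both genotypes. In such bulk RNA, fewer cells with a transcript and less of it per cell cannot be told apart.

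The promoters of the genes that the results turn on differ in how many CpG dinucleotides, the sites that DNA methyltransferases act on, they hold. RefSeq (GRCm38.p6) gave a window of 250 bases before and 50 bases from the annotated start for 13 of the 16 genes. The 250 bases before the start are printed for Magea8 and Magea2, which are near-copies, for Magea10, for Mageb4, and for Mageb16, which had over 100 counts in every library. All 5 lie on the minus strand of the X chromosome, and capitals mark each CpG. They are chrX:154995851-154996100 for Magea8, chrX:155033293-155033542 for Magea2, chrX:72386859-72387108 for Magea10, chrX:86256220-86256469 for Mageb4 and chrX:79671436-79671685 for Mageb16.
Magea8: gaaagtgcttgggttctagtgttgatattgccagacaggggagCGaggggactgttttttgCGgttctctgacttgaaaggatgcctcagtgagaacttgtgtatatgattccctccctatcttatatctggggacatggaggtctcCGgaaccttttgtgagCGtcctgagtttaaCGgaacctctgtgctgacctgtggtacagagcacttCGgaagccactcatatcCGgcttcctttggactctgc
Magea2: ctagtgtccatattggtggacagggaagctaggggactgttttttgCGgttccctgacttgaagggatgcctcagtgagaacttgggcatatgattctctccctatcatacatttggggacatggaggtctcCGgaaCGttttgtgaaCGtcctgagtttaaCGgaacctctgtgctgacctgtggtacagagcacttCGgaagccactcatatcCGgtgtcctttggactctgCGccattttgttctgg
Magea10: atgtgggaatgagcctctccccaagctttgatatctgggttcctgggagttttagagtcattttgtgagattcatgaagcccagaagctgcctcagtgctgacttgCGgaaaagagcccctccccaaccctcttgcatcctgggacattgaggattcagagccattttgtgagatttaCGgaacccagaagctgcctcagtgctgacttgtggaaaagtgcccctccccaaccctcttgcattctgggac
Mageb4: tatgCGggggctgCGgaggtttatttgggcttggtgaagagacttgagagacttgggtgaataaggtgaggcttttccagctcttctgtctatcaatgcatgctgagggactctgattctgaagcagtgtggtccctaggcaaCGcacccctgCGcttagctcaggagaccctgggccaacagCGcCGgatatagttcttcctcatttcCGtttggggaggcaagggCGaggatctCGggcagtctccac
Mageb16: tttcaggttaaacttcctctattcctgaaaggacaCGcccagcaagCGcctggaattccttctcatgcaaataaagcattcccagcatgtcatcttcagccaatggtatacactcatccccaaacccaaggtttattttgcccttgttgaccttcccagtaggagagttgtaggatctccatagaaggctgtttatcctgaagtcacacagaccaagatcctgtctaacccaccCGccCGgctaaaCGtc
These stretches hold 7 CpG in Magea8, 8 in Magea2, 2 in Magea10, 9 in Mageb4 and 5 in Mageb16. Over the whole windows of 300 bases, Magea8 and Magea2 were identical at 264 of 315 aligned positions (83.8%), whereas Magea10 and Magea8 shared 56.7%.

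Of 13 windows, 9 held fewer CpG than the median of 7 over all 32851 RefSeq windows (quartiles 3 and 20; the median over X-linked windows was also 7). Mageb3 had 20 CpG, Mageb4 11, Magea8 10, Magea2 9, Mageb16 6, Magea10 5 and Magea4 2. Mageb5, Mageb18, Magea6 and Magea1 had 1 each, and Magea3 and Magea5 had 0. For Magea4, Magea6, Magea3 and Magea5 the window lies 1002 to 9959 bases inside the gene record, so a start further upstream was not covered for these 4.

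**Figure D1:**
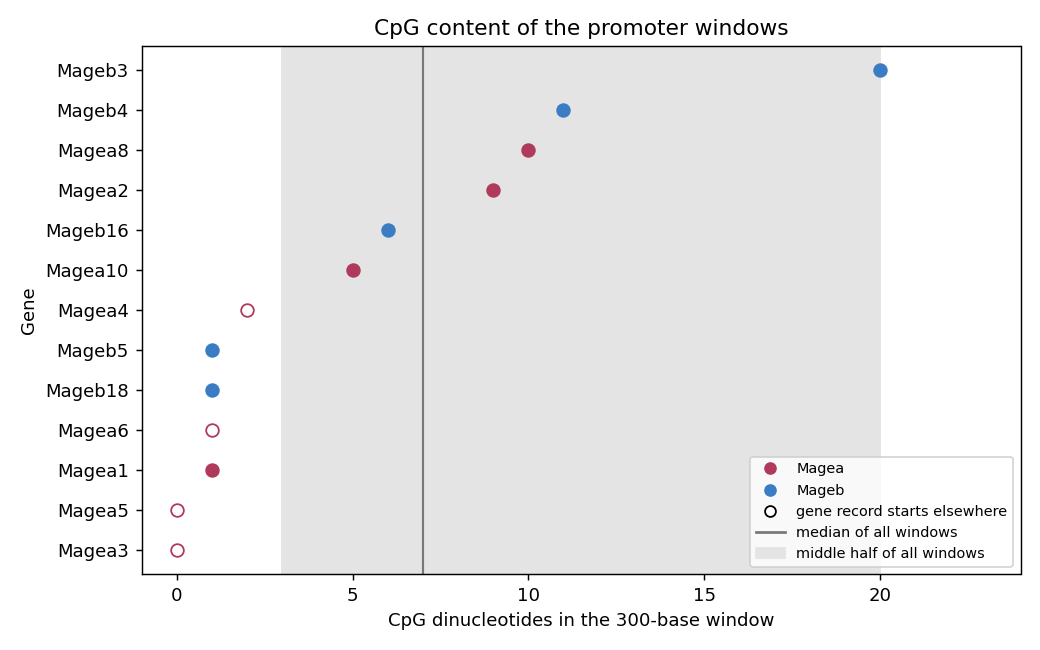
CpG dinucleotides (x axis) in the 300-base RefSeq window of each of the 13 genes with one (y axis). The grey line is the median of 7 and the grey band the quartiles (3 to 20) of all 32851 windows. Open circles mark the 4 genes whose record starts further upstream. Mageb3, Mageb4, Magea8 and Magea2 lie above the median and the other 9 below it.

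Short motifs bound by factors known from MAGE or germline promoters were searched in the 13 windows on both strands. The GC box GGGCGG was in 2 of 13 windows (Mageb3 and Mageb16), against 35.7% of all windows. CCATNTT, the core of the YY1 motif, was in 3 of 13 (Magea10, Magea8 and Magea2), against 16.1% of all windows. The ETS-type motif CCGGAAG (8.86% of all windows), the E-box CACGTG (7.15%) and the NRF1 motif (4.6%) were in none of the 13. The CCATNTT matches are shown with 10 bases on each side, with the match in capitals, because the same 27 bases occur at 2 genes. The match begins 1 base after the start in Magea8, 14 bases before it in Magea2, and 89 bases before and 15 bases after it in Magea10.
Magea8, 1 after: ggactctgcgCCATTTTgttctggagc
Magea2, 14 before: ggactctgcgCCATTTTgttctggagc
Magea10, 89 before: ggattcagagCCATTTTgtgagattta
Magea10, 15 after: ggattcagcgCCATTTTgtgaggatgc
Magea2 held another match 243 bases before its start. No binding was measured in the libraries used here, so these matches are letters in the sequence only.

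Summed over the 8 genes, Magea RNA was near the floor of detection in wild type cells and was far higher in both TKO groups. Wild type cells had 6 and 6 counts with DMSO and 16 and 20 with TSA, and TKO cells had 369 and 454 with DMSO and 857 and 1420 with TSA. In normalised CPM these were 0.457 ± 0.0411, 1.17 ± 0.270, 29.1 ± 5.51 and 73.6 ± 22.0 (mean ± SD, n = 2 each). The 4 groups did not overlap, and every TKO library exceeded every wild type library. The fold between group means is given with a 95% counting interval, which comes from exact limits on the counts and leaves out the spread between libraries. TKO against wild type gave 63.7-fold (36.3 to 124) in DMSO and 63.0-fold (46.1 to 91.7) in TSA. TSA against DMSO gave 2.55-fold (1.29 to 5.37) in wild type cells, on counts of 12 against 36 in all, and 2.52-fold (2.36 to 2.77) in TKO cells. Of the wild type counts, Magea4 alone held 7 of the 12 with DMSO and 28 of the 36 with TSA. The wild type value is thus mainly that of Magea4, which was 9.15% to 14.6% of the sum in the TKO libraries. TKO TSA against wild type DMSO gave 161-fold (93.0 to 316). No p is given for a sum, and with 2 libraries against 2 an exact permutation test cannot go below 0.333.

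**Figure D2:**
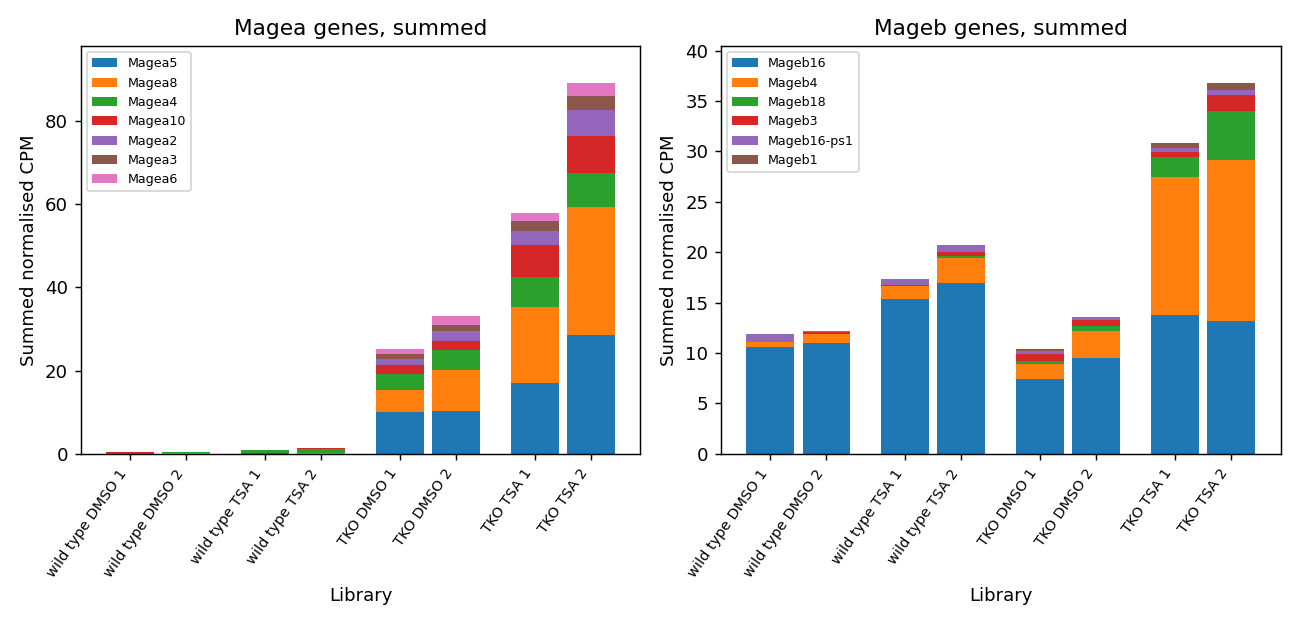
Stacked normalised CPM (y axis, from 0) of the Magea genes (left) and the Mageb genes (right) in each of the 8 libraries (x axis). Each colour is 1 gene and the bar height is the family sum. The Magea sum is at most 1.36 CPM in wild type libraries and 25.2 to 89.2 CPM in TKO libraries. The Mageb sum runs from 10.4 to 20.7 CPM outside TKO TSA and is 30.9 and 36.8 CPM there.

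In TKO cells the largest parts of the Magea sum were Magea5 and Magea8, which lie in a cluster of 6 Magea genes over 166 kb of the X chromosome, all on the minus strand. Gene coordinates are those of the deposited models, on mm10 per the submitters' processing notes. Magea8 (chrX:154985775-154995850, 4 exons) had 0 and 1 counts with DMSO and 1 and 2 with TSA in wild type cells. In TKO cells it had 78 and 136 counts with DMSO and 269 and 493 with TSA. Magea5 (chrX:155053061-155061553, 3 exons) had 1 and 0, 1 and 0, 147 and 141, and 251 and 453 counts in the same order. Both genes were thus at or near 0 in all wild type libraries, with and without TSA, and their TKO TSA libraries were above their TKO DMSO libraries. TKO against wild type in DMSO was 188-fold (35.3 to 7890.2) for Magea8 and 285-fold (47.6 to 10606) for Magea5, wide intervals on 1 wild type count each. In TSA it was 249.5-fold (87.7 to 1249.8) and 744-fold (128 to 28192). Both genes entered the test across all genes through their TKO libraries alone, so no p is given for their genotype difference. A gene is called at an adjusted p below 0.05 in edgeR's quasi-likelihood test, with p adjusted by Benjamini-Hochberg over the 15822 genes tested. By this test both rose with TSA in TKO cells, Magea8 3.23-fold (log2 fold change 1.70 ± 0.31 SE, adjusted p = 0.000806) and Magea5 2.24-fold (1.16 ± 0.25, adjusted p = 0.00229).

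The next 3 genes of the cluster were listed at 0 in all 4 wild type libraries. Magea2 (chrX:155027201-155033292, 4 exons), the near-copy of Magea8 at the promoter, had in TKO cells 21 and 32 counts with DMSO and 48 and 99 with TSA. Magea3 (chrX:154948463-154949569, 1 exon) had 18 and 21, then 37 and 53 counts, and Magea6 (chrX:154924012-154926115, 2 exons) had 17 and 29, then 29 and 50. Against a floor of 3 counts per library, the TKO DMSO level was at least 8.23-fold higher for Magea2, at least 7.16-fold for Magea6 and at least 6.04-fold for Magea3. In TSA these bounds were 24.4, 13.2 and 15.1. They too entered the test through their TKO libraries, and no p is given for these differences. Magea2 rose with TSA in TKO cells 2.51-fold (1.34 ± 0.41, adjusted p = 0.0190) and Magea3 2.11-fold (1.08 ± 0.36, adjusted p = 0.0272). Both TSA calls were lost with DESeq2 (adjusted p = 0.0549 and 0.186), without TKO DMSO replicate 1 (0.137 and 0.153) and without TKO TSA replicate 2 (0.201 and 0.175), and that of Magea3 also without TKO DMSO replicate 2 (0.0731). Magea6 was 1.56-fold higher, its TKO libraries overlapped between treatments, and it was not called (0.65 ± 0.42, adjusted p = 0.207).

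Magea1 (chrX:155088519-155089790), at the upstream end of the same cluster, had 0 counts in all 8 libraries. The RefSeq window of Magea1 was identical to that of Magea3 at 85.4% of aligned positions, each with 1 CpG or fewer. The Magea3 window lies 9462 bases inside its gene record, so this likeness does not show that either window is a promoter. Levels of different genes are compared per kb of exon. In TKO TSA Magea8 had 14.9 and Magea5 14.5 CPM per kb, Magea2 2.81, Magea3 2.63 and Magea6 2.12. With SDs of 9.02 and 8.10 CPM before division by length, Magea8 and Magea5 did not differ beyond their spread, and neither did Magea2, Magea3 and Magea6 among themselves. In TKO DMSO the order was Magea5 (6.50 CPM per kb), Magea8 (4.63), Magea6 (1.36), Magea3 (1.25) and Magea2 (1.12).

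**Figure D3:**
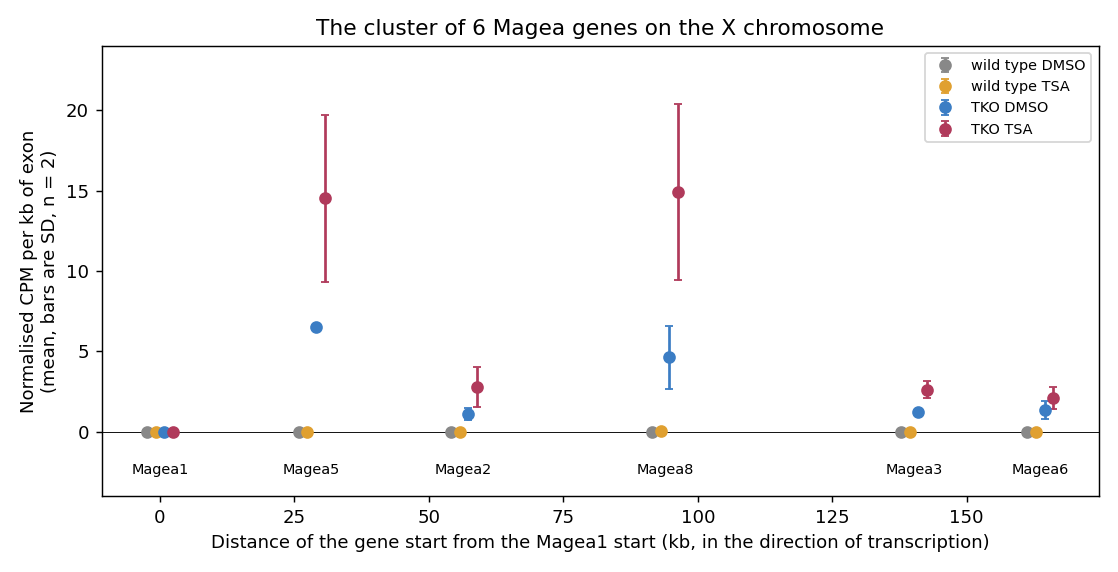
Mean level of the 6 clustered Magea genes in normalised CPM per kb of exon (y axis) against the distance of each start from the Magea1 start in kb (x axis). Colours are the 4 groups and bars are SD (n = 2). Magea5 and Magea8 stand highest in both TKO groups, Magea2, Magea3 and Magea6 stay below 3 CPM per kb, and Magea1 is at 0.

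The other 2 Magea genes lie elsewhere on the X chromosome, with starts 165 kb apart. Magea4 (chrX:72222017-72222964, plus strand, 1 exon) had at least 3 counts in every wild type library: 3 and 4 with DMSO and 12 and 16 with TSA. Its TKO libraries had 54 and 66 counts with DMSO and 109 and 130 with TSA. The 4 groups did not overlap. Magea4 rose with TSA in wild type cells (3.38-fold, 1.73 ± 0.51, adjusted p = 0.0145) and in TKO cells (1.83-fold, 0.87 ± 0.25, adjusted p = 0.0108). It was 15.8-fold (7.50 to 40.5) higher in TKO than in wild type cells in DMSO (3.95 ± 0.41, adjusted p = 0.000123) and 8.54-fold higher in TSA (3.09 ± 0.30, adjusted p = 0.000124). Without wild type DMSO replicate 1 or without wild type TSA replicate 2, the TSA difference in wild type cells was no longer called (adjusted p = 0.0910 and 0.0939). The one in TKO cells was lost without TKO DMSO replicate 1 (0.0977), without TKO TSA replicate 2 (0.0688) and with DESeq2 (0.0540).

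Magea10 (chrX:72381870-72386858, minus strand, 4 exons) had 2 and 1 counts with DMSO and 2 and 2 with TSA in wild type cells, but 34 and 29 with DMSO and 114 and 142 with TSA in TKO cells. Its wild type libraries stayed at or below 2 counts with TSA, whereas both TKO TSA libraries were above both TKO DMSO libraries. Magea10 was 19.8-fold (6.38 to 97.2) higher in TKO cells in DMSO and 64.4-fold (25.0 to 239.6) higher in TSA, with no p for the same reason. It rose with TSA 3.75-fold in TKO cells (1.90 ± 0.25, adjusted p = 9.93e-05). In TKO TSA the ratio of replicate 2 to replicate 1 was 1.16 for Magea10 and 1.11 for Magea4, but 1.91 for Magea2, 1.70 for Magea8, 1.67 for Magea5, 1.60 for Magea6 and 1.33 for Magea3. In TKO DMSO it was 0.907 for Magea10, 1.02 for Magea5 and 1.85 for Magea8, so the genes with close replicates were not the same in both groups.

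**Figure D4:**
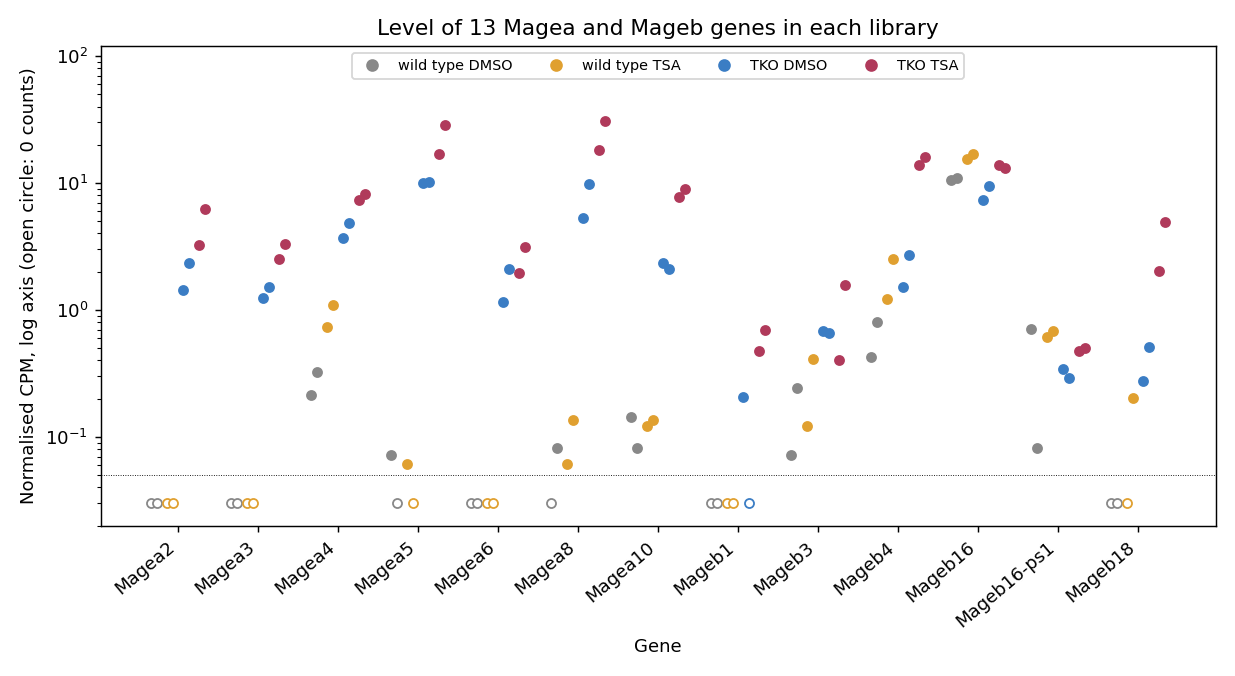
Normalised CPM on a log axis (y) of the 13 genes with any count, in each of the 8 libraries (1 point per library, coloured by group). Open circles below the dotted line are libraries with 0 counts and have no place on the axis. TKO points of the Magea genes lie above 1 CPM and their wild type points near or below 1 CPM, while the Mageb16 points run from 7.39 to 16.9 CPM.

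The Mageb sum was present in all groups, overlapped between the genotypes in DMSO and was highest in TKO TSA. It was 166 and 150 counts with DMSO and 284 and 305 with TSA in wild type cells, and 152 and 187 with DMSO and 456 and 586 with TSA in TKO cells. As levels these were 12.0 ± 0.220, 19.0 ± 2.39, 12.0 ± 2.27 and 33.8 ± 4.20 CPM (mean ± SD, n = 2 each). The DMSO libraries of the genotypes overlapped, at 1.00-fold (0.853 to 1.17) for TKO against wild type. TSA gave 1.59-fold (1.38 to 1.82) in wild type cells and 2.82-fold (2.51 to 3.22) in TKO cells, and in TSA the TKO sum was 1.78-fold (1.62 to 1.98) that of wild type.

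Mageb16 (chrX:79623231-79671435, minus strand, 5 exons) made up most of this sum outside TKO TSA. In wild type cells Mageb16 had 149 and 136 counts with DMSO and 252 and 249 with TSA, and in TKO cells 108 and 130 with DMSO and 203 and 209 with TSA. The TSA libraries were above the DMSO libraries in both genotypes, and the TKO libraries were somewhat below the wild type ones in each treatment. It rose with TSA 1.49-fold in wild type (0.58 ± 0.17, adjusted p = 0.0135) and 1.59-fold in TKO cells (0.67 ± 0.17, adjusted p = 0.00579). TKO cells had 0.778-fold (0.651 to 0.925) the wild type level in DMSO and 0.831-fold (0.729 to 0.950) in TSA, neither of which was called (-0.36 ± 0.18, adjusted p = 0.173, and -0.27 ± 0.16, adjusted p = 0.283). The wild type TSA call was lost without wild type DMSO replicate 1 (adjusted p = 0.0530) or wild type TSA replicate 2 (0.0882), and the TKO call without TKO DMSO replicate 1 (0.0679). Mageb16 was 71.1% and 69.5% of the Mageb sum in TKO DMSO but 44.5% and 35.7% in TKO TSA.

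Mageb4 (chrX:86250256-86256219, minus strand, 3 exons) was the Mageb gene with the largest TSA difference among those with counts in all 8 libraries. Counts in wild type cells were 6 and 10 with DMSO and 20 and 37 with TSA, and in TKO cells 22 and 37 with DMSO and 203 and 255 with TSA. Wild type TSA and TKO DMSO were thus at like levels (1.87 ± 0.914 and 2.10 ± 0.839 CPM), and TKO TSA stood above both at 14.9 ± 1.61 CPM. Mageb4 rose with TSA 3.02-fold in wild type cells (1.59 ± 0.50, adjusted p = 0.0210) and 7.09-fold in TKO cells (2.83 ± 0.34, adjusted p = 4.72e-05). TKO cells had 3.39-fold (1.95 to 6.38) the wild type level in DMSO (1.76 ± 0.50, adjusted p = 0.0292) and 7.96-fold (6.17 to 10.9) in TSA (3.00 ± 0.34, adjusted p = 0.000269). The DMSO call was lost without wild type DMSO replicate 1 (adjusted p = 0.194) or TKO DMSO replicate 2 (0.207), and the wild type TSA call without wild type DMSO replicate 1 (0.139) or wild type TSA replicate 2 (0.178).

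Mageb18 (chrX:92118879-92599572, minus strand, 5 exons) had 0 and 0 counts with DMSO and 0 and 3 with TSA in wild type cells. In TKO cells it had 4 and 7 counts with DMSO and 30 and 78 with TSA. It was highest in TKO TSA, where replicate 2 was 2.41 times replicate 1. TKO TSA was 8.85-fold (4.87 to 18.7) higher than TKO DMSO and 34.0-fold (12.1 to 179.5) higher than wild type TSA, with no p because Mageb18 passed the filter on low counts through TKO TSA alone. TKO DMSO was at least 1.71-fold higher than wild type DMSO and was not called (adjusted p = 0.0797), but DESeq2's test (0.0291), a fit with no such filter (0.0377), a fit with the replicate block (0.0198) and a fit without TKO TSA replicate 1 (0.0496) called it.

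The remaining 5 Mageb genes had too few counts for the test. Mageb3, the only gene of the 16 off the X chromosome (chr2:121953771-121956092), had 1, 3, 2 and 6 counts in the wild type libraries and 10, 9, 6 and 25 in the TKO libraries. Its TKO DMSO level was 4.26-fold (1.47 to 17.8) that of wild type DMSO, without overlap, and its libraries overlapped in the other single-factor comparisons. The pseudogene Mageb16-ps1 (chrX:144552758-144556239) had between 1 and 10 counts in every library, with wild type DMSO covering that whole range. Mageb1 had 0 counts in all wild type libraries, and in TKO cells 3 and 0 with DMSO and 7 and 11 with TSA. Mageb1 is listed at a pair of X-linked places, chrX:91331755-91332897 and chrX:92015191-92016333, Mageb2 inside both (chrX:91331905-91332897 and chrX:92015191-92016183), and all 1986 exon bases of Mageb2 lie inside Mageb1 exons, of which they make up 86.9%. Reads in the shared bases cannot be assigned to 1 of the 2 genes, so the 0 counts listed for Mageb2 throughout set no limit on its level. Mageb5 (chrX:91779608-91782976) also had 0 counts in all 8 libraries.

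Counted over the whole set, 10 of the 16 genes passed the filter on low counts. For Magea2, Magea3, Magea5, Magea6, Magea8, Magea10 and Mageb18 no wild type library held more than 3 counts, so these 7 passed through their TKO libraries and had to differ between genotypes. Counts of them are therefore descriptions. Mageb18 passed through TKO TSA alone, so this holds for its TSA call in TKO cells too. In DMSO, 8 of the 10 tested were called higher in TKO cells and 0 lower, against 9.63% of all tested genes called higher and 10.7% lower. In TSA, 9 were called higher and 0 lower, against 10.0% and 8.38%. TKO TSA against wild type DMSO called 9 higher, against 31.7% of all tested genes, and Mageb16 was the 1 tested gene not called there (0.31 ± 0.17, adjusted p = 0.130).

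With TSA, 3 of the 10 tested members rose in wild type cells (Magea4, Mageb4 and Mageb16), against 27.0% of all tested genes called higher, and 9 rose in TKO cells, against 30.8%. No member was called lower in either, against 25.9% and 27.9% of all tested genes. At an unadjusted p below 0.05, edgeR and DESeq2 each found 0 members lower, with TSA in either genotype or in TKO cells with either agent. Apart from TSA in TKO cells, this rests on Magea4, Mageb4 and Mageb16. The other 7 tested members had at most 3 counts in each wild type library and could not be found lower there. Of the 3 wild type calls, 0 remained without wild type DMSO replicate 1, where the pseudogene Mageb16-ps1 was called instead (2.86, adjusted p = 0.0355), and 0 without wild type TSA replicate 2. Of the 9 TKO calls, 6 remained without TKO TSA replicate 2 and 6 with DESeq2. Without TKO DMSO replicate 1, 5 remained and Mageb1 was added (adjusted p = 0.0301). Over all genes the split of TSA calls depends on the scaling. In wild type cells it was 4266 higher and 4092 lower with TMM factors, 5365 and 2794 with upper-quartile factors, and 5812 and 2433 with library totals. In TKO cells it was 4872 and 4412, 5337 and 3787, and 5908 and 3267. Library totals put the median of all genes at 0.22 in wild type and 0.19 in TKO cells (log2), and under these scalings the TSA difference kept its direction for Magea4, Mageb4 and Mageb16 in wild type cells and for all 10 tested members in TKO cells. The other 7 had too few wild type counts for a direction there. The median log2 fold change over the 10 tested genes was 0.37 in wild type and 1.25 in TKO cells, where the medians over all tested genes were 0.01 and 0.04. In wild type cells 7 of these 10 had at most 3 counts per library, and no median is given for TKO against wild type, where passing the filter fixed the direction of these 7. Libraries of the groups did not overlap, with the first group higher, for 3 of 16 genes when wild type cells with and without TSA were compared (39.6% of all tested genes) and for 11 in the same comparison of TKO cells (42.5%). TKO against wild type gave 10 genes with DMSO (29.4%) and 10 with TSA (31.8%). With the first group lower, TSA gave 0 genes in wild type (37.4%) and 0 in TKO cells (39.5%). TKO against wild type gave 1 lower with DMSO, Mageb16 (30.5%), and 2 with TSA, Mageb16 and Mageb16-ps1 (31.1%). These counts without overlap are over all 16 members, 10 of them tested, whereas the shares beside them are over tested genes only.

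**Figure D5:**
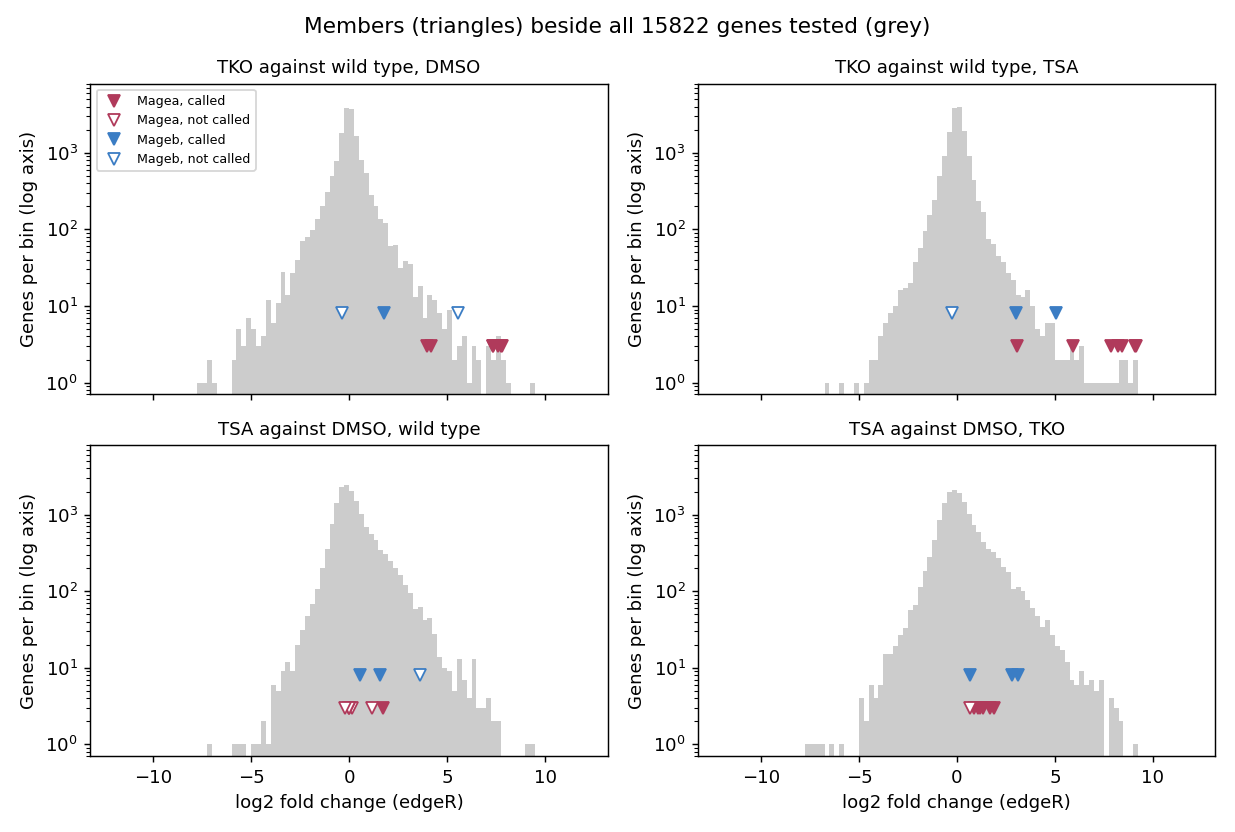
Number of tested genes per bin (grey, log y axis) by fitted log2 fold change (x axis) in 4 comparisons, with the 10 tested Magea and Mageb genes as triangles, filled where called. Triangle height carries no value. In the upper panels (TKO against wild type) the Magea triangles lie at 3.09 or more; those above 7 have a wild type group at 0 to 3 counts and depend on the prior count. In the lower panels (TSA against DMSO) no triangle lies beyond 3.62.

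Whether the TSA difference was larger in TKO than in wild type cells was tested as the interaction of genotype and treatment. None of the 10 genes was called (0 at an adjusted p below 0.05 and 0 at an unadjusted p below 0.05, with edgeR and with DESeq2), against 1.35% of all tested genes. The difference of log2 fold changes was 1.24 ± 0.66 for Mageb4 (adjusted p = 0.427), -0.86 ± 0.57 for Magea4 (adjusted p = 0.546) and 0.10 ± 0.24 for Mageb16 (adjusted p = 0.904), which was -0.07 without TKO DMSO replicate 1. That of Mageb4 ran from 0.743 to 1.83 over the alternatives and kept its sign. In an edgeR fit with the replicate block its unadjusted p was 0.0316 and its adjusted p 0.217, so it was not called there either. The other 7 genes had at most 3 counts in each wild type library, so their TSA difference there is hardly measured. The larger number of calls in TKO cells is thus not shown to be a difference in the TSA effect.

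Genes next to the members did not follow one pattern. Within 100 kb lie 12 X-linked genes that are not members, 6 of them tested. Of these 6, 1 was called higher and 2 lower in TKO cells in DMSO (9.63% and 10.7% over all genes). In TSA, 3 were higher and 1 lower in TKO cells (10.0% and 8.38%). With TSA, 2 were higher and 1 lower in wild type (27.0% and 25.9%), and 4 higher and 2 lower in TKO cells (30.8% and 27.9%). Gm41, near Mageb4, had 0 and 0, 7 and 13, 16 and 19, and 110 and 145 counts in the 4 groups in the order above and was called higher in all 4 comparisons, as Mageb4 was. On the other side of Mageb4, Nr0b1, which encodes the nuclear receptor DAX1, had 921 and 1129, 319 and 251, 1759 and 1994, and 1219 and 597 counts. It fell with TSA in both genotypes (-2.10 ± 0.30, adjusted p = 0.000246, and -1.15 ± 0.28, adjusted p = 0.00452), opposite to Mageb4, and was higher in TKO than in wild type cells in TSA (1.71 ± 0.30, adjusted p = 0.00332), as Mageb4 was. Gm5941, inside an intron of Mageb18, had at most 2 counts outside TKO TSA and 18 and 45 there. Gm41 passed the filter on low counts through its TKO libraries and Gm5941 through TKO TSA alone. The calls of both genes between genotypes, and that of Gm5941 with TSA in TKO cells, are therefore descriptions. Gabre and Gabra3, GABA-A receptor subunit genes near Magea4 and Magea10, were lower in TKO than in wild type cells in DMSO (-2.38 ± 0.56, adjusted p = 0.0118, and -3.13 ± 0.50, adjusted p = 0.00149), opposite to those Magea genes. Gabre rose with TSA in wild type (1.62 ± 0.36, adjusted p = 0.00352) and in TKO cells (3.61 ± 0.49, adjusted p = 0.000111), as Magea4 did, and Gabra3 rose with TSA in TKO cells (1.98 ± 0.55, adjusted p = 0.00939), as Magea10 did. Gabra3 was also lower in TKO than in wild type cells in TSA (-1.62 ± 0.37, adjusted p = 0.0119). Gm15070, near Mageb16-ps1, fell with TSA in TKO cells (-0.94 ± 0.37, adjusted p = 0.0467). Near Mageb3, on chromosome 2, Casc4 rose with TSA in both genotypes (0.62 ± 0.11 and 0.48 ± 0.11) and in TKO cells in DMSO (0.41 ± 0.11), while Spg11 fell with TSA in both (-0.50 ± 0.13 and -0.74 ± 0.13) and Ctdspl2 in TKO cells (-0.45 ± 0.12).

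On the X chromosome as a whole, without the members, 622 genes were tested. Of these 12.9% were called higher in TKO cells in DMSO (9.63% over all genes), 21.7% in TSA (10.0%), 33.6% with TSA in wild type (27.0%) and 42.1% with TSA in TKO cells (30.8%). Called lower were 15.1% in TKO cells in DMSO (10.7% over all genes), 7.07% in TSA (8.38%), 22.3% with TSA in wild type (25.9%) and 20.4% with TSA in TKO cells (27.9%). In DMSO more X-linked genes were thus lower than higher in TKO cells.

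MAGE genes outside the Magea and Mageb symbols were examined too. Of 11 such genes in the table, all tested, 1 was higher and 2 lower in TKO cells in DMSO (9.63% and 10.7% over all genes). In TSA, 1 was higher and 1 lower in TKO cells (10.0% and 8.38%). The gene higher in both was 4930550L24Rik, an X-linked gene that RefSeq lists under the synonym mage-k1, with 1 and 0, 12 and 19, 149 and 119, and 935 and 1258 counts in the 4 groups. It rose in all 4 comparisons (TKO against wild type 7.67 ± 0.51 in DMSO and 6.14 ± 0.25 in TSA, and TSA against DMSO 4.44 ± 0.82 in wild type and 2.91 ± 0.19 in TKO cells). With 1 and 0 counts in wild type DMSO, the values of 7.67 and 4.44 depend on the prior count and their size is poorly measured. With TSA, 5 of the 11 rose and 1 fell in wild type cells (27.0% and 25.9% over all genes). In TKO cells 7 rose and 1 fell with TSA (30.8% and 27.9%). Magel2, an imprinted regulator of ubiquitin ligases, was at 3.42 ± 0.820, 8.26 ± 1.49, 2.62 ± 0.313 and 11.6 ± 2.66 CPM. Magee2 was at 2.84 ± 0.792, 7.29 ± 0.459, 1.53 ± 0.515 and 6.63 ± 0.664 CPM, so that both were high in the TSA groups of either genotype.

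For genes of ubiquitin ligases and other partners of MAGE proteins, 7 of 8 listed were tested. Of these 7, 2 were lower in TKO cells in DMSO (10.7% over all genes) and 3 in TSA (8.38%). With TSA, 2 were higher and 4 lower in each genotype. Over all genes 27.0% were higher and 25.9% lower with TSA in wild type, and 30.8% and 27.9% in TKO cells. Trim28, the partner of several human MAGE proteins, fell with TSA from 2360.3 to 1407 CPM in wild type (-0.75 ± 0.08) and from 2441 to 1406 CPM in TKO cells (-0.80 ± 0.08). Lnx1, a RING-type ligase, rose with TSA (1.15 ± 0.23 and 1.53 ± 0.27) and was lower in TKO cells (-1.41 ± 0.28 in DMSO and -1.03 ± 0.23 in TSA).

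Of 23 tested X-linked cancer-testis and germline genes, 15 were higher in TKO cells in DMSO (9.63% over all genes), 20 in TSA (10.0%), 12 with TSA in wild type (27.0%) and 18 with TSA in TKO cells (30.8%). Tex13 had 0.274 ± 0.186, 6.97 ± 3.98, 1.34 ± 0.0584 and 57.2 ± 10.2 CPM in the 4 groups. Many genes of this list are similar Xlr copies, whose reads may also be assigned to the wrong copy. Fthl17, Rhox2a, Xlr4a, Xlr4b, Xlr4c, Xlr5a, Xlr5b and Xlr5c had at most 9 counts in each wild type library. They passed the filter on low counts through their TKO libraries, so the genotype counts that include them are descriptions. Xlr, with 0 and 2 counts with DMSO and 10 and 28 with TSA in wild type cells, also needed a TKO library to pass. The autosomal germline gene Dpep3, with 3 and 4, then 8 and 22, did too, so genotype counts with these genes are descriptions as well. Fthl17 and Xlr5c had at most 5 counts in each library outside TKO TSA, so their TSA calls in TKO cells are descriptions too. The same holds for Xlr5b, with 3 and 11 counts in TKO DMSO and at most 2 in wild type libraries. Of 24 autosomal germline genes, 15 were higher and 1 lower in TKO cells in DMSO (9.63% and 10.7% over all genes). In TSA, 15 were higher and 2 lower in TKO cells (10.0% and 8.38%). With TSA, 16 were higher and 1 lower in wild type (27.0% and 25.9%), and 15 and 2 in TKO cells (30.8% and 27.9%). Tdrd1 was lower in TKO cells in DMSO (-2.63 ± 0.27) and in TSA (-2.24 ± 0.26), and Ddx4 in TSA (-1.34 ± 0.19). Hormad1 fell with TSA in wild type and TKO cells (-0.93 ± 0.34 and -1.97 ± 0.28) and Ddx4 in TKO cells (-1.25 ± 0.19). Asz1, needed for the piRNA pathway in germ cells, had 0.579 ± 0.213, 3.25 ± 1.84, 17.4 ± 1.51 and 71.4 ± 2.54 CPM, a pattern with the same order of groups as Magea4. Brdt, a testis bromodomain gene, had 1.91 ± 0.279, 21.9 ± 6.88, 2.36 ± 0.0468 and 29.6 ± 9.12 CPM and rose with TSA in both genotypes.

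Among 22 genes for factors linked to MAGE or germline promoters, 2 were higher and 3 lower in TKO cells in each treatment. Over all genes 9.63% were higher and 10.7% lower in DMSO, and 10.0% and 8.38% in TSA. Ctcfl (BORIS), itself a cancer-testis gene that is also counted among the autosomal germline genes, had 1.38 ± 0.339, 3.60 ± 0.863, 15.7 ± 3.97 and 17.3 ± 0.331 CPM and rose in TKO cells (3.51 ± 0.29 in DMSO, 2.27 ± 0.24 in TSA). Ets1, an ETS factor, was lower in TKO cells (-1.98 ± 0.17 and -0.86 ± 0.15) and rose with TSA (1.04 ± 0.15 and 2.16 ± 0.17). With TSA, 3 rose and 8 fell in wild type cells (27.0% and 25.9% over all genes). In TKO cells 2 rose and 7 fell with TSA (30.8% and 27.9%).

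Markers of other cells were examined beside these results. The 8 spermatogenic markers, among them the protamine genes Prm1 and Prm2, summed to 0.0714 to 0.754 CPM per library, and 2 of them were at 0 throughout; none had enough counts to be tested. By library the sum was 0.0714 and 0.324 with DMSO and 0.428 and 0.680 with TSA in wild type cells, and 0.137 and 0.146 with DMSO and 0.541 and 0.754 with TSA in TKO cells, so the TKO DMSO libraries lay within the wild type range. The 5 spermatogonial markers summed to 104 to 137 CPM in all libraries, most of it Uchl1 (89.4 to 120 CPM by group). Of the other 4, Nanos3 rose with TSA in wild type cells from 5.37 to 22.9 CPM (adjusted p = 0.000102), and Gfra1 fell with TSA from 9.17 to 1.88 CPM in wild type and from 4.20 to 0.739 CPM in TKO cells (adjusted p = 0.000153 and 0.000198). The 5 somatic testis markers summed to 6.35 and 5.27 CPM with DMSO and 9.59 and 9.17 with TSA in wild type cells, and to 5.82 and 5.60 with DMSO and 9.47 and 7.97 with TSA in TKO cells. Star, the only one of them tested, rose with TSA in both genotypes (0.76 ± 0.20 and 0.69 ± 0.20). The 6 markers of two-cell-like cells were higher with TSA in both genotypes, from 10.6 and 10.6 to 111 and 195 CPM in wild type and from 6.84 and 8.00 to 253 and 332 CPM in TKO cells. Fibroblast and feeder markers, 7 genes, summed to 37.9 and 44.5, 79.6 and 94.9, 10.9 and 10.6, and 35.2 and 52.4 CPM in the 4 groups. This sum was higher with TSA in each genotype and lower in TKO cells in each treatment, but not every gene followed it. With TSA, 4 of 6 tested genes rose and Col3a1 fell in wild type cells (-1.03 ± 0.37, adjusted p = 0.0341), and all 6 rose in TKO cells. Over all genes 27.0% were called higher with TSA in wild type and 30.8% in TKO cells. Between genotypes, 3 of the 6 were called lower in TKO cells in each treatment and 0 higher. Over all genes 10.7% were lower in DMSO and 8.38% in TSA. Lum was at 0.56 ± 0.31 in TSA and was not called. Dcn, not tested, had 10 and 6, 1 and 2, 19 and 4, and 0 and 0 counts. The part of the spermatogonial, somatic testis, two-cell-like and fibroblast markers in the differences of the Magea and Mageb genes was not tested.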

How the data were processed

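RNA was sequenced in 8 libraries of mouse ES cells (4 groups of 2). Per the labels' protocols, ribosomal RNA was removed and a strand-directional kit was used with paired-end reads. The authors deposited 1 table of raw counts per gene. The submitters' processing notes name TopHat2 2.0.13, featureCounts 1.4.5-p1, edgeR 3.22.3 and the mm10 build. How reads that map to several copies were counted, and whether strand was used, is not given in the sources used here. The deposited summed exon length per gene, in bases, was used for levels per kb. Coordinates are those of the deposited gene models, and promoter windows are RefSeq's on GRCm38.p6.

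All 23420 genes entered 1 edgeR 4.0.16 fit in R 4.3.3 with TMM factors and filterByExpr, 1 mean per group and a shared spread (common biological coefficient of variation 10.3%, 4 residual degrees of freedom). The quasi-likelihood test was two-sided, with Benjamini-Hochberg adjustment over 15822 tested genes and a call at 0.05. A fold change ± SE is on the log2 scale, and levels are normalised CPM. p-values measure the spread between these libraries. Folds against a group at 0 use 3 counts per library. Intervals (95%) cover counting error only and treat each count as independent. PCR copies are not independent molecules, so the intervals may be too narrow. The chi-square between replicates was 5.28 to 12.2 per degree of freedom, so no library was a duplicate. The scripts were tested on simulated data. DESeq2 1.42.0, other scalings, no filter, a replicate block and leaving out each library were tried as alternatives.

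The members and the gene lists were chosen with earlier results of these data known. All 16 members are accounted for, with values per library from 10 counts in all. From each list at most 3 called genes per comparison were named, by size of change, and every called neighbour within 100 kb was named. Autosomal germline genes called lower were named in addition, as were germline genes that passed the filter through TKO libraries.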

Additional observations from a re-analysis of the deposited data

How the results depend on the processing

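Fold changes of single members, and the interaction of Magea4, Mageb4 and Mageb16, were recomputed where a group held more than 3 counts in a library. Between genotypes, passing the filter fixed the direction for the 7 members with at most 3 counts in each wild type library. They are part of the tally and of the ranges of calls between genotypes below, so part of that stability was set in advance. Of the recomputed values 661 kept their direction and their side of the threshold, 5 passed it newly, 19 lost it and 1 reversed, the interaction of Mageb16 without TKO DMSO replicate 1 (adjusted p = 0.954). That interaction ran from -0.072 to 0.284 when 1 library was left out. Of the other 7 tested members, with at most 3 counts in each wild type library, the interaction also changed sign for Magea5 (1.35, and -1.09 without wild type DMSO replicate 1), Magea8 (0.52, and -1.95 without wild type DMSO replicate 2) and Mageb18 (-0.48, and 3.13 without wild type TSA replicate 2). The number of members called with TSA in wild type, 3 in the fit reported, ranged from 0 to 3 when 1 library was left out (1 without wild type DMSO replicate 1, where Mageb16-ps1 took the place of the 3 reported, and 0 without wild type TSA replicate 2). With TSA in TKO cells it was 9 and ranged from 6 to 10 over all alternatives. DESeq2 called 6 there, and leaving out TKO DMSO replicate 1 or TKO TSA replicate 2 left 6 each, with Magea2, Magea3 and Magea4 lost in all 3. Without TKO DMSO replicate 1 Mageb16 was lost too and Mageb1 was added. For TKO against wild type the range was 7 to 9 with DMSO and 9 to 10 with TSA. The Mageb sum for TSA in wild type was 0.87 on the log2 scale with library totals in place of 0.67. For TKO in DMSO it ran from -0.21 to 0.18 and so had no stable sign. With total counts Mageb16 was called higher in TKO TSA than in wild type DMSO (0.48, adjusted p = 0.0312). With no filter Mageb1 was called higher in TKO TSA than in wild type TSA (adjusted p = 0.0130).

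The labels number the replicates without saying that a number pairs libraries, and the correlation of same-numbered libraries' deviations ran from 0.0586 to 0.366 in 6 pairings of groups. With the replicate block, TSA called 3 members in wild type and 9 in TKO cells, TKO against wild type called 9 with DMSO and 9 with TSA, and the interaction called 0. The block added Mageb18 for TKO in DMSO (5.52, adjusted p = 0.0198). Depth limits what can be said of wild type levels, where 3 counts correspond to 0.183 to 0.243 CPM per library. Magea1 and Mageb5 had 0 counts in all 8 libraries, and several Magea genes had 0 to 2 counts in wild type libraries. How reads shared between similar copies were counted is not known, so 0 counts set no upper limit for Magea1.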
